A study of Arabidopsis thaliana with 6 samples.

Results

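Plants of the order Brassicales make glucosinolates, sulfur- and nitrogen-containing defence compounds built from amino acids such as methionine (in the aliphatic class) or tryptophan (the indolic class). In core synthesis, cytochromes P450 turn the amino acid into a reactive oxime-derived intermediate, which is conjugated to glutathione. A gamma-glutamyl peptidase trims the conjugate, the C-S lyase SUR1 cleaves it to a thiohydroximate, and a glucosyltransferase of the UGT74 group adds glucose to the sulfur to give a desulfoglucosinolate. Sulfotransferases then finish the core with a sulfate group from PAPS, the product of APS kinase. The 7 probe sets described here read genes of 3 of these steps. They are GSTF11, GSTU20, GSTF9 and GSTF10 for glutathione conjugation, SUR1 for cleavage, and UGT74B1 and UGT74C1 for S-glucosylation.

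The 7 were chosen by probe set identifier from the 22810 probe sets of the table. The platform's gene table names 3 of them, 260745_at as GSTU20, 264873_at as UGT74B1 and 263477_at by its locus AT2G31790, for which the name UGT74C1 is used here. The other 4 are unnamed in that table, and 258851_at is called GSTF11, 267153_at GSTF9, 267154_at GSTF10 and 263714_at SUR1 as in the list that chose them. All 7 loci (AT3G03190, AT1G78370, AT2G30860, AT2G30870, AT2G20610, AT1G24100 and AT2G31790, for GSTF11, GSTU20, GSTF9, GSTF10, SUR1, UGT74B1 and UGT74C1) are in the gene table of the assembly TAIR10.1. Each is read by a probe set of the plain "_at" kind, designed to match 1 transcript.

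The study compared the apk1 apk2 double mutant of Arabidopsis thaliana (salk_053427 crossed with salk_093072, insertion lines for the APS kinase genes APK1 and APK2) with its wild type Col-0, on 3 Affymetrix ATH1 arrays per genotype. The double mutant is 1 line, and the APS kinase genes APK3 and APK4 were not targeted. Each sample was total RNA from 10 pooled whole rosettes at 35 days of age. Plants were kept in a 10 h day at 22 °C and 60% humidity and cut 4 h after lights came on. All samples shared 3 days of cold. The labels describe 3 separately pooled samples per genotype, so the p-values measure the spread between pools. Values are MAS5 signals, a linear brightness per probe set in arbitrary units, scaled by the authors to the same trimmed mean on each array. Array medians lay between 32.5 and 34.5. APK1 and APK2 had no named probe set, so the labels were not checked against the disrupted genes. Of 6 leaf and 5 floral marker genes none had a named probe set, and the 2 root markers with one, EXPA7 and EXPA18, were dim on all 6 arrays, each with signals below the array's 40th percentile.

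Transcripts of all 3 steps were more abundant in the double mutant. Of the 7 probe sets, 6 rose past an adjusted p of 0.05 with limma, and GSTF10 did not pass. By background, 5.79% of the 13848 tested probe sets, 802 in number, were called higher (526 without double mutant replicate 3). At least 2-fold increases were called for 5 of the 7, namely GSTF11, GSTU20, SUR1, UGT74B1 and UGT74C1, against 1.81% of tested probe sets. For all 7 the lowest double mutant array lay above the highest wild-type array, which held for 13.0% of tested probe sets (28.7% did not overlap in either direction). The median log2 change was 1.18 over the 7 and −0.02 over all tested probe sets. The 7 were chosen with earlier results of these data known, so these background shares are no independent test of them. All 7 were above the 40th percentile of signal, which was 16.9 to 19.4, on all 6 arrays. In whole rosettes, more cells that express a gene and more RNA per cell cannot be told apart.

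**Figure D1:**
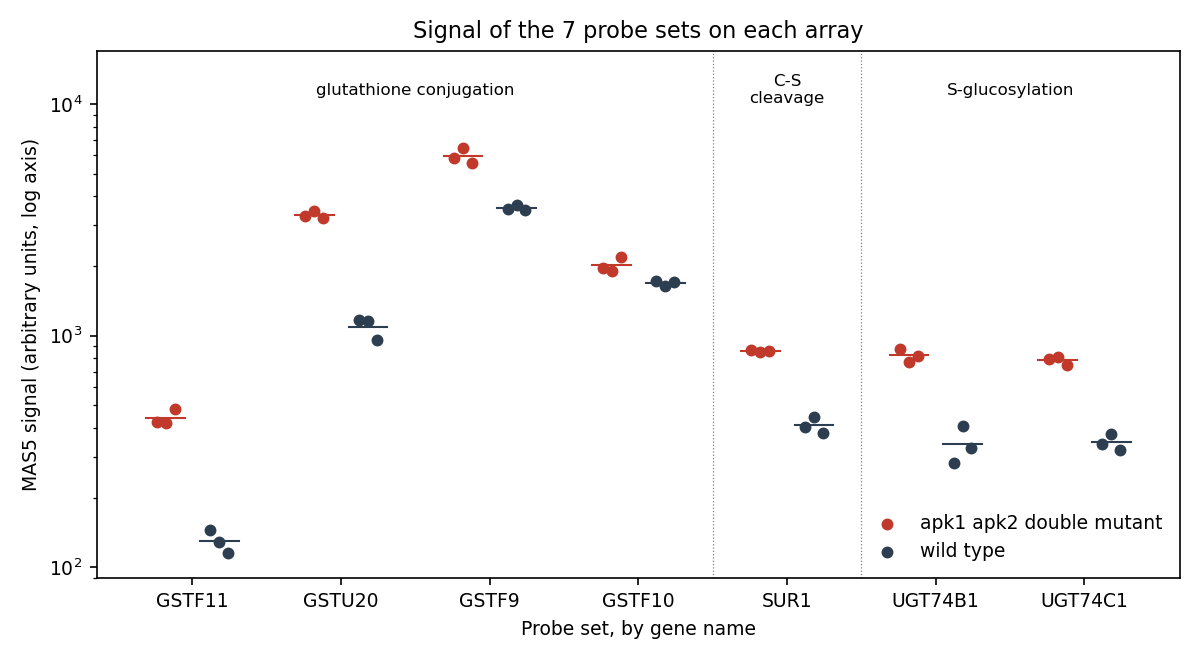
MAS5 signal (log axis, arbitrary units) of the 7 probe sets on each array, with the apk1 apk2 double mutant in red left of the wild type in dark blue. Points are replicates 1, 2 and 3 from left to right and bars are means of 3 arrays, and the genotypes do not overlap for any of the 7, with the narrowest gap for GSTF10.

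At the conjugation step, glutathione transferases attach the tripeptide glutathione, which supplies the sulfur atom of the later thioglucoside. GSTF11, a phi class glutathione transferase linked to the aliphatic class, had signals of 425, 418 and 483 in double mutant replicates 1, 2 and 3, against 145, 129 and 115 in wild-type replicates 1, 2 and 3. The lowest double mutant signal was 2.88 times the highest wild-type signal, the widest gap of the 7. The rise was 3.41-fold (95% interval 2.91 to 4.00, n = 3 per genotype, limma adjusted p = 2.19e-07), and 0.556% of tested probe sets had a larger log2 change. GSTU20, a tau class transferase also linked to the aliphatic class, had 3302, 3462 and 3222 in the double mutant and 1164, 1161 and 954 in the wild type. It rose 3.06-fold (95% interval 2.67 to 3.50, limma adjusted p = 9.82e-08). These 2 transferases had the largest fold increases of the 7. Their intervals overlap each other and that of UGT74B1 (2.05 to 2.92), so their place above UGT74B1 is not settled by these intervals.

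GSTF9 and GSTF10 are phi class transferases that are direct neighbours on the chromosome in the gene table, and both have been proposed to act in glucosinolate synthesis. GSTF9 had 5871, 6460 and 5551 in the double mutant, against 3530, 3680 and 3473 in the wild type. Its rise of 1.67-fold (95% interval 1.48 to 1.89, limma adjusted p = 4.80e-05) was the smallest among the 6 that passed the test. GSTF9 was among the brightest probe sets on the arrays, with between 23 and 117 probe sets brighter on an array, and array maxima lay between 7995 and 10419. Whether signals near the top of the scale were compressed was not tested. GSTF10 had 1952, 1911 and 2194 in the double mutant, against 1726, 1637 and 1705 in the wild type. The genotypes did not overlap, but the lowest double mutant array was 1.11 times the highest wild-type array. The GSTF10 ratio of 1.19-fold (95% interval 1.06 to 1.34) did not pass (limma adjusted p = 0.0561), and 15.3% of tested probe sets had a larger log2 change. Its call depended on the processing, with a limma adjusted p of 0.0426 after quantile normalization and 0.192 without a variance trend.

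SUR1, the lyase that serves both the aliphatic and the indolic class and has no close functional substitute in the pathway, had 869, 851 and 859 in the double mutant. Wild-type arrays had 405, 445 and 380. SUR1 rose 2.10-fold (95% interval 1.86 to 2.38, limma adjusted p = 1.98e-06). The 3 double mutant arrays were closer together than for any other of the 7, with a coefficient of variation of 1.03%, against 7.95% in the wild type.

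At the glucosylation step, UGT74B1, which accepts thiohydroximates of both classes, had 878, 770 and 816 in the double mutant and 283, 409 and 326 in the wild type. The wild-type arrays varied most for this gene, with a coefficient of variation of 18.8%, against 6.63% in the double mutant. UGT74B1 rose 2.45-fold (95% interval 2.05 to 2.92, limma adjusted p = 1.07e-05). UGT74C1, which is linked to the aliphatic class, had 792, 807 and 747 in the double mutant, against 342, 377 and 321 in the wild type. It rose 2.26-fold (95% interval 1.99 to 2.57, limma adjusted p = 1.44e-06). The intervals of UGT74B1, UGT74C1 and SUR1 overlap one another, so the order of these 3 is not settled by the intervals. The interval of GSTF9 lies below those of UGT74B1 and UGT74C1 and overlaps that of SUR1 between 1.86 and 1.89. Overlapping intervals do not test a difference, and no ratio with SUR1 was tested.

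**Figure D2:**
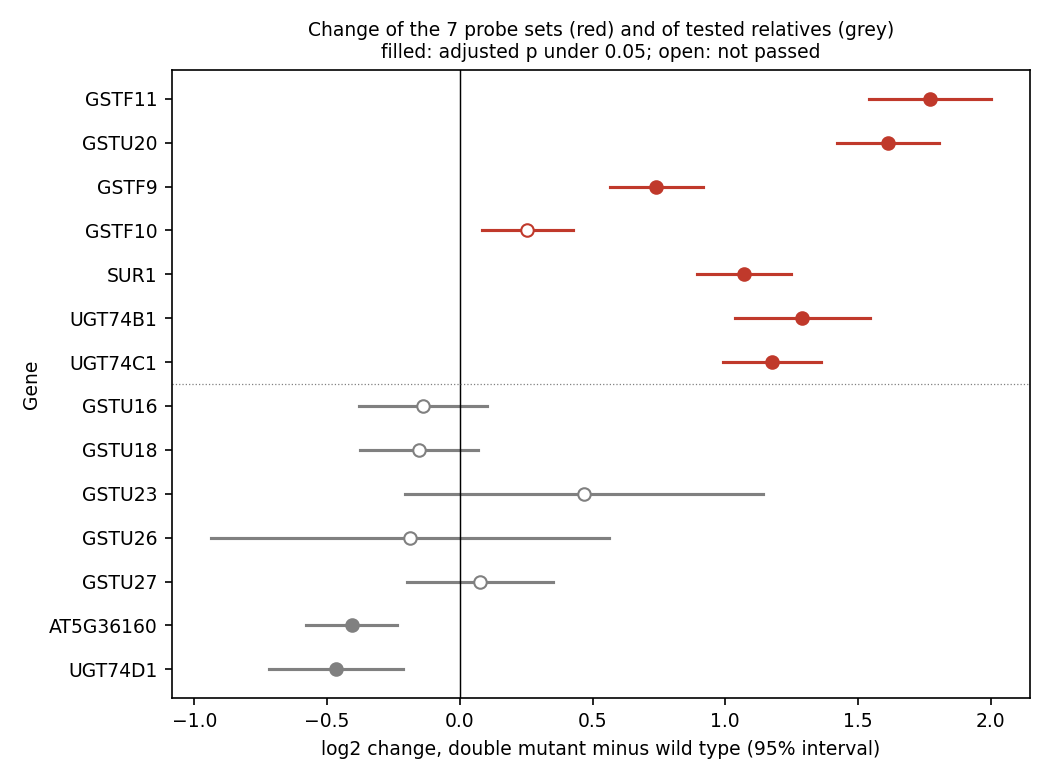
Log2 change, double mutant minus wild type, with its 95% interval from limma (3 arrays per genotype), for the 7 probe sets in red and for tested relatives of the same families in grey. Filled circles passed an adjusted p of 0.05; the red points run from 0.25 for GSTF10 to 1.77 for GSTF11, and AT5G36160 and UGT74D1 lie at −0.41 and −0.47.

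Whether genes of the same step changed by different amounts was tested on the ratio of 2 probe sets within each array, in 7 pairs. The log2 ratio of GSTF11 over GSTF10 was −2.20, −2.19 and −2.18 in the double mutant and −3.57, −3.67 and −3.89 in the wild type, a shift of 1.52. Against GSTF10, GSTU20 shifted by 1.36 and GSTF9 by 0.49. Against GSTF9, GSTF11 shifted by 1.03 and GSTU20 by 0.87. In these 5 pairs the double mutant ratios did not overlap the wild-type ratios. Each had an exact two-sided permutation p = 0.1, the smallest that 3 against 3 arrays can give. After Benjamini-Hochberg adjustment over the 7 pairs this was 0.14, so none could pass 0.05. How often ratios of other pairs of tested probe sets separate in this way was not computed. The count of 5 in 7 thus has no background share and is not read as a result about these genes.

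The ratios of GSTF11 and GSTU20 to GSTF9 and GSTF10 separated by genotype, while the ratio between GSTF11 and GSTU20 overlapped between the genotypes. With 3 arrays per genotype the test could not decide which of these genes changed by different amounts. GSTF11 over GSTU20 had a mean log2 ratio of −2.92 ± 0.16 in the double mutant and −3.07 ± 0.09 in the wild type (SD, n = 3 arrays each). The shift was 0.16 (exact permutation p = 0.3, adjusted 0.35). For the 2 glucosyltransferases, UGT74B1 over UGT74C1 had 0.15, −0.07 and 0.13 in the double mutant and −0.27, 0.12 and 0.02 in the wild type. These overlap too, with a shift of 0.11 (exact permutation p = 0.5, adjusted 0.5). The GSTF9 over GSTF10 ratio was 1.59, 1.76 and 1.34 in the double mutant and 1.03, 1.17 and 1.03 in the wild type, so every double mutant array had a higher ratio of these neighbouring genes than every wild-type array.

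**Figure D3:**
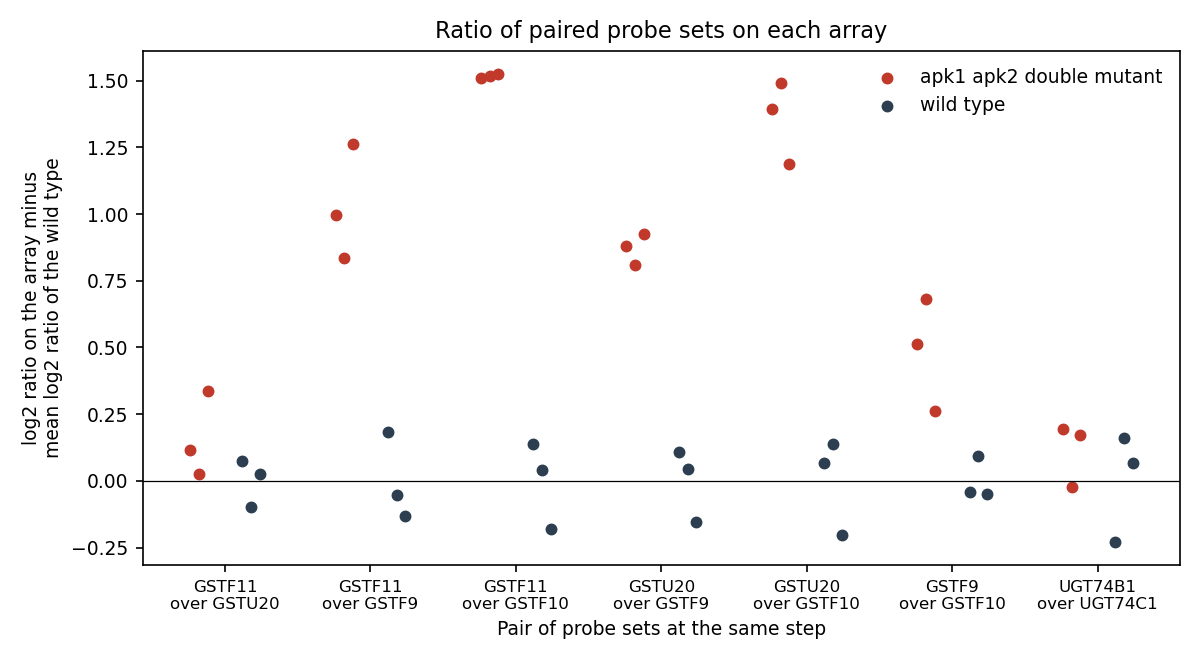
Log2 ratio of 2 probe sets on each array minus the mean log2 ratio of the 3 wild-type arrays, for the 7 pairs within a step, with double mutant arrays in red left of wild-type arrays in dark blue. Red and blue points separate in 5 pairs, with shifts from 0.49 to 1.52, and mix for GSTF11 over GSTU20 and for UGT74B1 over UGT74C1.

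Within a genotype no single array was lowest or highest for all 7. Wild-type replicate 3 gave the lowest wild-type signal for 5 of the 7, namely GSTF11, GSTU20, GSTF9, SUR1 and UGT74C1, while replicate 1 was lowest for UGT74B1 and replicate 2 for GSTF10. The deviation of wild-type replicate 3 from its genotype mean was −0.17 (log2) for GSTF11 and −0.19 for GSTU20, where the median over all tested probe sets was 0.0027. It was −0.11 for SUR1 and UGT74C1, −0.04 for GSTF9 and UGT74B1, and 0.01 for GSTF10. The share of all tested probe sets that were lowest on this array was not computed. Wild-type replicate 2 was highest for 4 of the 7, with a deviation of 0.29 for UGT74B1. Among double mutant arrays, replicate 2 was highest for 3 and lowest for 4, and replicate 1 was lowest for 0. Without any single array, the 6 called members stayed past the threshold, with log2 changes of 1.69 to 1.86 for GSTF11 and 0.68 to 0.79 for GSTF9.

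Relatives of the 7 in the same enzyme families were listed by locus and looked up through the platform's gene table, which named few of them. Of 37 other phi and tau class glutathione transferases, 12 had a named probe set, 7 of these were not tested because of low signal, and 5 tau class genes were tested. None of the 5 passed the limma test, where 11.3% of all tested probe sets were called in either direction, so a count of 0 in 5 is near the background. Of the 5, 0 had an unadjusted p under 0.05, with log2 changes from −0.19 for GSTU26 to 0.47 for GSTU23. GSTU18 had 372, 323 and 303 in the double mutant and 414, 344 and 354 in the wild type (limma adjusted p = 0.408). GSTU16 had 164, 135 and 145 in the double mutant, against 150, 159 and 180 in the wild type. GSTU27 had 276, 232 and 204 in the double mutant, against 261, 205 and 207 in the wild type. For GSTU16, GSTU18 and GSTU27 the genotypes overlap, and the 95% intervals of the fold reached up to 1.07, 1.05 and 1.27.

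GSTU21, the direct neighbour of GSTU20 in the gene table, was likewise dim, with signals below the 40th percentile on every array. So were GSTF4 and GSTF13, the 2 other phi class genes with a named probe set. Nothing can be said here of GSTU19, the neighbour on the other side, or of the gamma-glutamyl peptidases GGP1 and GGP3, which act between conjugation and cleavage, as no probe set was named for them.

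One relative of the glucosyltransferases and one of the lyase were tested, and both were lower in the double mutant. UGT74D1, a glucosyltransferase known to act on auxins, is separated from UGT74C1 by 3 protein-coding genes in the gene table. It had 136, 111 and 105 in the double mutant, against 153, 167 and 163 in the wild type. UGT74D1 was 1.38-fold lower (95% interval 1.16 to 1.65, limma adjusted p = 0.0196), where 5.55% of tested probe sets were called lower. That call ended without double mutant replicate 2 (adjusted p = 0.0584) or 3 (0.0847), without wild-type replicate 2 (0.0783) or 3 (0.0748), and without a variance trend (0.0725). AT5G36160, an aminotransferase of the family to which SUR1 belongs by sequence, had 398, 371 and 379 in the double mutant, against 492, 528 and 505 in the wild type. It fell 1.33-fold (95% interval 1.18 to 1.49, limma adjusted p = 0.00452), and the genotypes did not overlap. The count of probe sets called lower, 769, was 503 without double mutant replicate 3 and 510, 485 and 444 without wild-type replicates 1, 2 and 3. UGT74F1, AT4G28420 and AT4G23590 were below the 40th percentile on every array.

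On either side of these steps few genes could be named. Of 10 genes of methionine chain elongation BCAT4 was tested, and it rose, with 3916, 4105 and 3923 in the double mutant and 953, 1026 and 915 in the wild type. The rise was 4.13-fold, and its 95% interval (3.69 to 4.63) overlaps that of GSTF11 and lies above those of the other 6. Of 11 genes of side chain modification 2 were tested, and AT2G25450, a dioxygenase gene, rose 2.03-fold, while AOP1 had 118, 100 and 89.7 in the double mutant and 107, 78.5 and 94.4 in the wild type. The 6 CYP79 and CYP83 genes before conjugation and the 3 sulfotransferase genes after glucosylation had no named probe set. Of 9 MYB and MYC regulators, MYC3 and MYC4 were tested and 0 were called, which is near the background share of 11.3%.

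Glutathione itself is the substrate of the conjugation step. Of 4 genes of its synthesis and reduction, the 2 glutathione reductases were tested. GR1, the cytosolic and peroxisomal enzyme, had 738, 744 and 742 in the double mutant, against 569, 568 and 469 in the wild type. It rose 1.39-fold (95% interval 1.22 to 1.59, limma adjusted p = 0.00372), and its adjusted p was 0.0504 without a variance trend. GR2 (AT3G54660), the enzyme of plastids and mitochondria, had 517, 553 and 489 in the double mutant, against 550, 590 and 539 in the wild type (limma adjusted p = 0.487).

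The 7 log2 changes lay on the upper side of the distribution of all tested probe sets. Between 0.556% of probe sets for GSTF11 and 3.26% for GSTF9 had a larger log2 change than one of the 6 called members. Over the 6 arrays, the root mean square distance to the mean centred log2 profile of the 7 was smallest for SUR1, at 0.0346, and UGT74C1, at 0.0465, and largest for GSTF10, at 0.448. Among 7463 other tested probe sets that name 1 gene, the closest profiles were those of AT5G67150 (distance 0.0717), AT2G25450 (0.0721), AT5G44720 (0.0735), AT3G18280 (0.0920) and APS3 (0.107). The 5 had folds between 1.99 for APS3, an ATP sulfurylase that makes the substrate of APS kinase, and 2.30 for AT5G44720. The distance is mostly set by the size of the genotype difference, which all of them share.

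**Figure D4:**
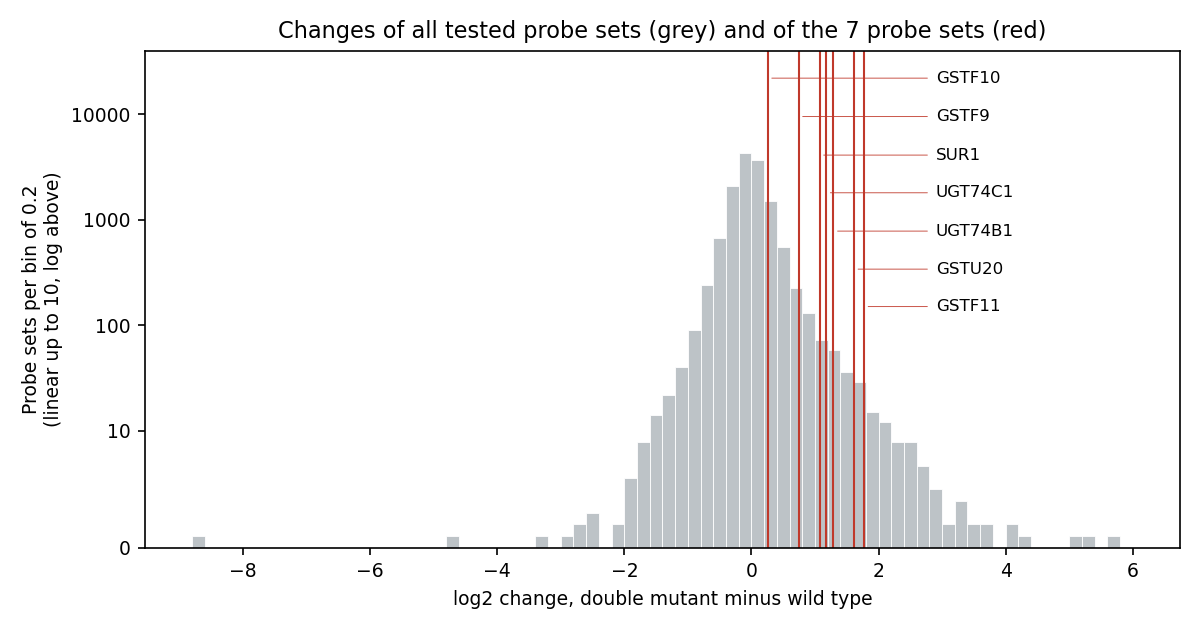
Number of tested probe sets per bin of 0.2 in log2 change, double mutant minus wild type (grey bars, axis linear up to 10 and logarithmic above), with the 7 probe sets as red lines. GSTF10 at 0.25 lies within the bulk of the distribution, and the other 6 lie between 0.74 and 1.77 in its upper tail.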

How the data were processed

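Signals of 6 ATH1 arrays were used, as intensity values deposited by the authors. MAS5 and GCOS are named, with no version, in the submitters' processing notes. Each array of the deposited table has a mean of 100.01 once its highest and lowest 2% of values are trimmed. Such scaling would hide an overall change of transcript amount. Here 64 control probe sets were left out, and 13848 probe sets that reached their array's 40th percentile on at least 3 arrays were tested on log2 signal without an offset, with limma 3.58.1 in R 4.3.3 (lmFit, eBayes with a variance trend, genotype alone), two-sided, with Benjamini-Hochberg adjustment over all of them. Folds and 95% intervals come from this fit. The fit was also run on simulated data with independent noise of the spread it had estimated, which does not test the calls made here. Ratios between 2 probe sets were compared by an exact permutation test over arrays.

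Gene names came from the platform's gene table through the gene identifier. A gene with several probe sets was read from the brightest. Genes named were the 7 members, listed relatives and pathway genes, at most 4 called genes per list or those needed for a small count, and the 5 closest profiles. Members and lists were chosen with earlier results of these data known. Coordinates and sequences are not given. Alternatives were the variance prior, quantile normalization, the filter, an offset, a replicate block and leaving out each array. The 3 arrays per genotype limit the precision.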

Additional observations from a re-analysis of the deposited data

How the results depend on the processing

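Under every setting tried, including each array left out in turn, the 6 called members kept their direction and stayed past the adjusted threshold. GSTF10, not called with all arrays, passed with quantile normalization (log2 change 0.25, adjusted p = 0.0426) and with a replicate block in the fit (0.25, adjusted p = 0.0248). GSTF10 did not pass without a variance trend (limma adjusted p = 0.192) or without the signal filter (0.133). Without single arrays its log2 change was 0.19 to 0.29 (adjusted p = 0.0670 to 0.196). The replicate numbers were not treated as pairs in the main fit, as the labels state no pairing. Deviations of same-numbered arrays correlated at 0.0824, 0.0772 and 0.110, and those of differently numbered arrays at −0.083 to −0.0034. Each array thus correlated best with its own number, and whether same-numbered arrays shared a batch was not tested. The block gave 1789 calls instead of 1571. The 1571 calls (802 higher, 769 lower) were 880 (507 and 373) without a variance trend and 811 at an adjusted p under 0.01, where a stricter limit lowers counts by construction, and 1029 to 1585 (526 to 791 and 444 to 794) without single arrays. Without a variance trend 0 of the tested UGT74 relatives and 0 of the glutathione genes were called, and without single arrays 0 to 1 UGT74 relatives were. With an offset of 16 before log2 the GSTF11 over GSTF10 shift, 1.52, was 1.40 and that of GSTF11 over GSTU20, 0.16, was 0.055. Without double mutant replicate 3 the GSTF11 over GSTU20 shift was 0.070, and without wild-type replicate 1 that of UGT74B1 over UGT74C1, 0.11, was −5.2e-05. Among genes that were not called, the log2 change crossed 0 without single arrays for GSTU26 (−0.42 to 0.10), GSTU27 (−0.039 to 0.19), MYC4 (−0.26 to 0.028) and MYC3 (−0.054 to 0.13). The cause of these shifts was not tested.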
